A study of Mus musculus with 6 samples.

Results

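Hyaluronan and large proteoglycan genes were examined in mouse myoblasts that model myotonic dystrophy type 1 (DM1), with and without miR-322/-503 overexpression. The genes were Has1, Has2, Hyal1, Hyal2, Cd44, Vcan, Acan, Cspg4 and Hspg2, found by symbol in the table of each library and joined by gene identifier to the matrix of estimated counts. They were 9 of the 55421 genes listed, and 8 of the 9 passed the filter on low counts that left 18140 genes for testing. All cells were derived from C2C12, myoblasts of the mouse that differentiate and fuse in low serum, and all carried a plasmid that expresses GFP with 200 CUG repeats in its 3′ untranslated region (UTR). The control line CUG200-ctrl also carried the empty vector and the line CUG200-m the vector that overexpresses miR-322/-503. RNA-seq was performed on total RNA on day 4 of differentiation, with 3 libraries per group. Each group was a single drug-selected stable line, so that an effect of the microRNAs and a difference between the lines cannot be told apart. The methods of the study describe biological replicates for its assays in general, but the labels do not say that the libraries of a group came from separate cultures. Where they did not, p-values measure only the spread between these libraries, which may be technical.

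Hyaluronan is a long unsulfated sugar polymer that is made at the plasma membrane by the hyaluronan synthases and released directly into the pericellular space, where hyaluronidases and the surface receptor CD44 take part in its breakdown and uptake. Versican and aggrecan are large chondroitin sulfate proteoglycans that bind hyaluronan and form aggregates with it, while NG2, encoded by Cspg4, spans the plasma membrane and perlecan, encoded by Hspg2, carries heparan sulfate in basement membranes. In differentiating muscle cells this pericellular matrix surrounds myoblasts before fusion, and a basement membrane with perlecan forms around the myotube.

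The mature microRNAs are shown because their seeds define the letters searched for in the 3′UTRs of the 9 genes. Capitals mark the seed, bases 2 to 8 from the 5′ end, and the sequences are those of RefSeq on GRCm38.p6, from chrX:53054306-53054327 and chrX:53054027-53054049 on the minus strand.
mmu-miR-322-5p: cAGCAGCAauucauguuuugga
mmu-miR-503-5p: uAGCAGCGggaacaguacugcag
The seeds share their first 6 bases and differ in the last. A 3′UTR was therefore searched on its sense strand for GCTGCT, which pairs with bases 2 to 7 of both, and for TGCTGCT and CGCTGCT, which pair with the whole seed of miR-322-5p and of miR-503-5p and each contain GCTGCT. Of the 9 genes, Has2 was the only one that held TGCTGCT and Hspg2 the only one that held CGCTGCT in the longest 3′UTR of GENCODE M21. Hyal1, Hyal2 and Vcan held GCTGCT and neither of the longer matches. The letter after the match was an A in Hyal1 and Hspg2, which faces the first base of the microRNA and is counted in some classes of seed match, and was not an A in Has2, Hyal2 and Vcan. No match was found in the 3′UTRs of Has1, Cd44, Acan and Cspg4. The matches are printed from the sense strand with the letters searched for in capitals, and lie in GRCm38 at chr15:56667526-56667532 on the minus strand (Has2), chr4:137569778-137569784 on the plus strand (Hspg2), chr9:107580594-107580599 on the plus strand (Hyal1), chr9:107572093-107572098 on the plus strand (Hyal2) and chr13:89656776-89656781 on the minus strand (Vcan).
Has2: agacatatcacTGCTGCTgggacttgaaca
Hspg2: aggccacgcttCGCTGCTaccaccctgggc
Hyal1: gaacacaggcaaGCTGCTagaagccggcta
Hyal2: ttacctaactcaGCTGCTggttccctacat
Vcan: atcgttggtttgGCTGCTttgctatagctt
These letters are common. Of the 13487 tested genes with a 3′UTR of at least 50 bases, 49.3% held GCTGCT, 27.0% held TGCTGCT and 5.72% held CGCTGCT. A match is only a description of the letters, and whether any of them is a functional site or a cause of a change was not tested.

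The 6 libraries held 73532084 to 92157388 estimated counts, about 18383021 to 23039347 read pairs, since a read pair was represented by about 4 estimated counts. The hairpin genes of the microRNAs were not informative in these libraries. Mir322 was counted 1, 7 and 2 times in the control and 17, 0 and 3 with miR-322/-503, and Mir503 had 1, 1 and 2 against 6, 4 and 5, so neither was tested nor used to check the labels. All 10 myoblast and myotube markers passed the count filter, with a summed level of 3519 to 3878 TPM, transcript abundance scaled for transcript length and library depth, in the control and 4318 to 4501 with miR-322/-503. Of these markers 6 were higher, 1 was lower (Myog) and 3 passed in neither direction, beside 13.2% higher and 15.5% lower over all tested genes in edgeR's quasi-likelihood test. As in any bulk sample, fewer cells of a type and less RNA per cell cannot be told apart. All 5 adipocyte markers were at 0 or nearly so, with a summed level of at most 0.0790 TPM. Of the 4 endothelial markers only Tek could be tested, and it was higher with a log2 fold change of 1.90 and a level of at most 0.524 TPM in the control, while Pecam1, Cdh5 and Kdr reached at most 0.156 TPM (edgeR's quasi-likelihood test, adjusted p = 0.000342). None of the 2 tested osteoblast and 2 tested macrophage markers passed the test.

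Of the 8 tested genes 3 were higher with miR-322/-503 (Has1, Cd44 and Vcan), 3 were lower (Has2, Cspg4 and Hspg2) and 2 passed in neither direction (Hyal1 and Hyal2), in edgeR's quasi-likelihood test with a Benjamini-Hochberg adjusted p threshold of 0.05. Over all 18140 genes, 13.2% were higher and 15.5% lower by the same rule. At a change of more than 2-fold as well, Has1 was higher and no gene of the group was lower, against 4.59% higher and 5.29% lower over all genes. No gene of the group fell by more than 2-fold, so the count of 0 was the same at any p threshold. The lowest log2 fold change was that of Has2, at -0.92 in edgeR and -0.91 in DESeq2. In 6 of the 8 genes the values of the groups did not overlap, as in 45.1% of all tested genes. The median log2 fold change of the 8 genes was 0.02, beside -0.01 over all tested genes.

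**Figure D1:**
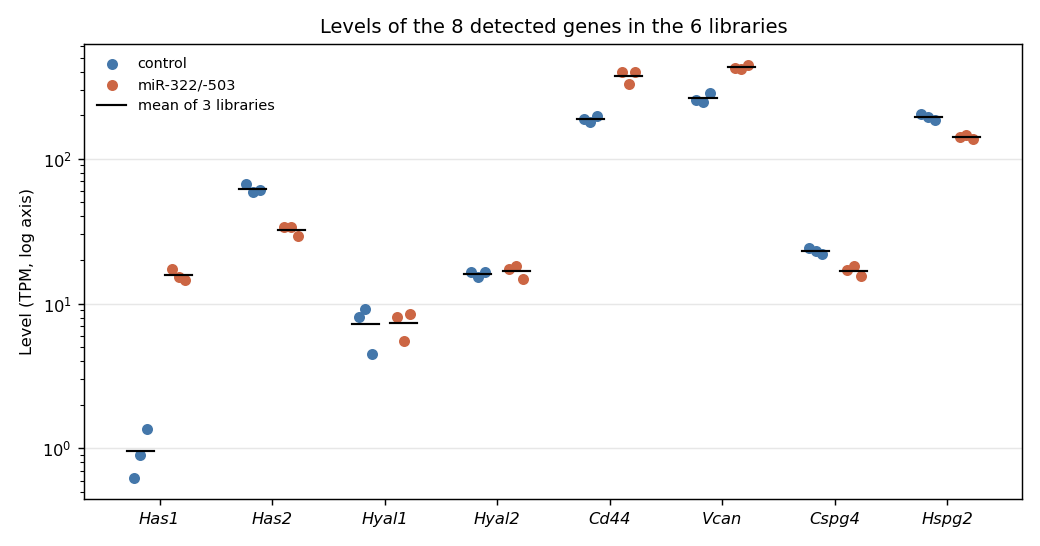
Level of each gene in each library in TPM on a log axis, with the control libraries and the miR-322/-503 libraries in separate colours and short bars at the group means. Has1 moved from 0.622 to 1.36 TPM in the control up to 14.5 to 17.3 TPM, Acan, at 0 in all 6 libraries, is not drawn, and the points of Hyal1 and Hyal2 overlap between the groups.

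The levels per length, in TPM, spanned more than 2 orders of magnitude. In the control Vcan was the highest at 262 ± 20.97 TPM (SD, n = 3), above Hspg2 at 194.7 ± 9.47 and Cd44 at 188 ± 9.72, and the last pair overlapped. Has2 followed at 62.1 ± 4.09, then Cspg4, Hyal2 and Hyal1, and Has1 was the lowest of the detected genes at 0.960 ± 0.373 TPM. With miR-322/-503 the order changed in the middle and at the low end. Vcan at 427 ± 17.2 TPM stayed above Cd44 at 375 ± 38.8, without overlap, and Hspg2 at 142 ± 4.44 was now well below Cd44. Has1 at 15.7 ± 1.43 TPM had reached the range of Cspg4 and Hyal2 and did not differ from them beyond the spread. Among all tested genes ranked by TPM within a group, Has1 moved from percentile 22.3 to 58.7 and Has2 from 86.0 to 75.02.

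The hyaluronan synthases moved in opposite directions, with gene positions given on GRCm38. Has1 (chr17:17843323-17855205, minus strand) encodes a synthase that is little used in many resting cells. Its estimated counts were 81, 127 and 173 in the control libraries and 1975, 1380 and 1372 with miR-322/-503. Every miR-322/-503 library was far above every control library, and the control values correspond to only 20, 32 and 43 read pairs. In CPM, the estimated counts scaled to the size of the library, Has1 rose from 1.54 ± 0.501 to 19.1 ± 1.39 (SD, n = 3). The log2 fold change was 3.63 with a standard error (SE) of 0.23 and a 95% interval of 3.08 to 4.17, a 12.3-fold rise (edgeR's quasi-likelihood test, adjusted p = 3.45e-05).

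Has2 (chr15:56665627-56694539, minus strand), the main synthase of mesenchymal cells and the gene with the TGCTGCT match printed above, counted 11377, 10883 and 11544 in the control libraries and 7143, 5620 and 5234 with miR-322/-503. All 3 miR-322/-503 libraries were below all 3 controls. On the CPM scale Has2 fell from 139 ± 7.76 to 73.2 ± 3.09, a log2 fold change of -0.92 with an SE of 0.06 and a 95% interval of -1.07 to -0.77 (edgeR's quasi-likelihood test, adjusted p = 5.06e-05). The ratio of the groups was 0.528. An antisense transcript, Has2os, overlaps Has2 and was counted at 337, 401 and 299 in the control and at 155, 203 and 258 with miR-322/-503. Its log2 fold change was -0.72 with an SE of 0.28, and it did not pass the test (edgeR's quasi-likelihood test, adjusted p = 0.0969). Whether the counting used strand is not given in the sources used here, so reads of the overlap could belong to either gene.

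The third synthase, Has3, belongs to the list of other hyaluronan genes. It had 55, 59 and 50 estimated counts against 171, 136 and 78, which are 12 to 15 and 20 to 43 read pairs. Its log2 fold change was 1.203 with an SE of 0.29 (edgeR's quasi-likelihood test, adjusted p = 0.0185), and the call was lost when control replicate 2 (log2 fold change 1.25, adjusted p = 0.0512), control replicate 3 (1.12, adjusted p = 0.0574), miR-322/-503 replicate 1 (1.09, adjusted p = 0.0604) or miR-322/-503 replicate 2 (1.08, adjusted p = 0.0624) was left out. All 3 synthases use the same sugar donors, and Ugdh, the enzyme that makes UDP-glucuronic acid, had 182 CPM in the control and 197 with miR-322/-503 and did not pass the test (edgeR's quasi-likelihood test, adjusted p = 0.363).

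Because TPM is a level per length, the synthases could be added up within each library. The sum of Has1, Has2 and Has3 was 67.5, 59.8 and 62.5 TPM in the control and 51.9, 49.7 and 44.2 TPM with miR-322/-503, so each miR-322/-503 library held less synthase mRNA than each control. The group means were 63.3 ± 3.89 and 48.6 ± 3.96 TPM, a ratio of 0.768, nearer to 1 than the ratio of Has2 alone. Has1 made up 0.922, 1.497 and 2.18% of the sum in the control and 33.3, 30.6 and 32.8% with miR-322/-503. Has2 held the rest almost entirely, with 97.5 to 98.7% in the control and 65.6 to 68.2% with miR-322/-503. These sums and shares of mRNA are descriptions and no test was run on them.

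**Figure D2:**
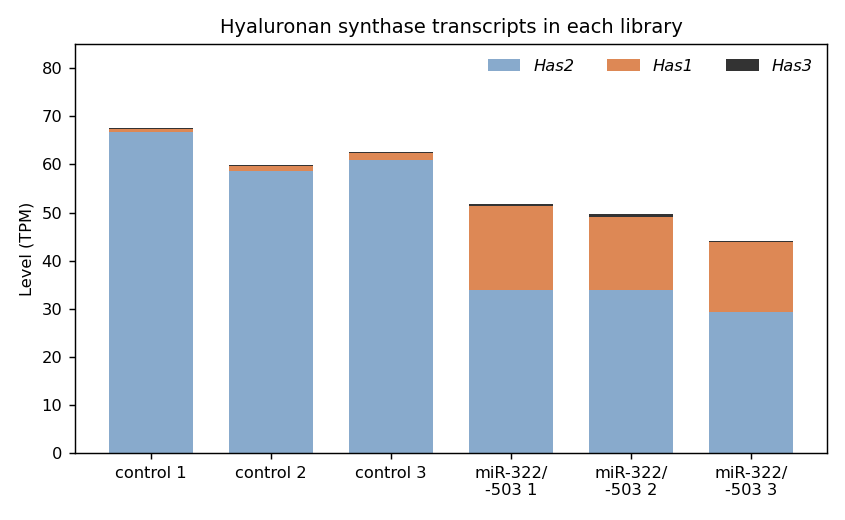
Hyaluronan synthase mRNA in each library, as stacked bars of TPM for Has1, Has2 and Has3 from 0. The bars of the 3 miR-322/-503 libraries end at 44.2 to 51.9 TPM, below the 59.8 to 67.5 TPM of the controls, and about 30.6 to 33.3% of their height is Has1.

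The hyaluronidases were detected at moderate levels and did not pass the test in either direction. Hyal2 (chr9:107567945-107572779, plus strand), a membrane-anchored enzyme that cuts long hyaluronan at the cell surface, had 16.5, 15.3 and 16.4 TPM in the control and 17.2, 18.1 and 14.9 TPM with miR-322/-503, and the groups overlapped. Its log2 fold change from the counts was 0.06 with an SE of 0.08 and a 95% interval of -0.13 to 0.25 (edgeR's quasi-likelihood test, adjusted p = 0.640). Hyal1 (chr9:107576927-107581710, plus strand), the lysosomal enzyme that degrades the fragments, varied more among its own replicates than Hyal2. Its estimated counts were 826, 1019 and 584 in the control and 1022, 541 and 874 with miR-322/-503, so the lowest library of each group was well under the others. Its log2 fold change was -0.02 with an SE of 0.25 and a 95% interval of -0.60 to 0.57 (edgeR's quasi-likelihood test, adjusted p = 0.970). The interval of Hyal1 was much wider than that of Hyal2, so these libraries bound a change of Hyal1 less closely. The sum of Hyal1 and Hyal2 was 24.5, 24.5 and 20.9 TPM in the control and 25.3, 23.5 and 23.3 TPM with miR-322/-503.

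Hyal1 shares sequence on the same strand with Naa80, an actin acetyltransferase, and with Hyal3, another family member in this gene cluster. Naa80 was lower, with 21.7 CPM in the control and 16.5 CPM with miR-322/-503 and a log2 fold change of -0.39 (edgeR's quasi-likelihood test, adjusted p = 0.0159). Hyal3 did not pass, with a log2 fold change of -0.11 (edgeR's quasi-likelihood test, adjusted p = 0.836). How the shared reads were divided among the 3 genes was not tested, and the value of Hyal1 is uncertain to that degree. Hyal2 is overlapped by the antisense gene Gm9917, which had a log2 fold change of 0.00 and did not pass (edgeR's quasi-likelihood test, adjusted p = 0.992).

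Cd44 (chr2:102811141-102901665, minus strand), the main cell-surface receptor of hyaluronan, was higher in every miR-322/-503 library than in every control library. It had 187, 179 and 198 TPM in the control and 399.8, 331 and 396 TPM with miR-322/-503. The lowest miR-322/-503 library was well above the highest control. In CPM the means were 300.3 ± 8.57 and 544 ± 31.3 (SD, n = 3), and the log2 fold change was 0.86 with an SE of 0.06 and a 95% interval of 0.71 to 1.004, a 1.81-fold rise (edgeR's quasi-likelihood test, adjusted p = 6.55e-05). Relative to the synthase Has2, Cd44 stood at 2.80, 3.04 and 3.25 times its TPM in the control and at 11.8, 9.76 and 13.5 times with miR-322/-503, a ratio that joins a gene that rose with one that fell.

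Among the core proteins, Vcan rose while Hspg2 and Cspg4 fell. Vcan (chr13:89655312-89742509, minus strand), the hyaluronan-binding chondroitin sulfate proteoglycan of loose and provisional matrix, was counted at 92359, 95901 and 120110 in the control and at 196521, 155801 and 178756 with miR-322/-503. The groups were separate, although control replicate 3 was above the other controls. The means were 1259 ± 142 and 2172 ± 178 CPM, and the log2 fold change was 0.79 with an SE of 0.09 and a 95% interval of 0.57 to 1.01, a 1.73-fold rise (edgeR's quasi-likelihood test, adjusted p = 0.000747). Gm4117 and Gm16318, which overlap the gene, had log2 fold changes of -0.40 and -0.36 and did not pass (edgeR's quasi-likelihood test, adjusted p = 0.172 and 0.571).

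Acan (chr7:79053483-79115099, plus strand), the aggrecan of cartilage, had 0 estimated counts in all 6 libraries and was not tested. A count of 0 allows up to about 3 read pairs, or 12 estimated counts, in a library, which is 0.148 CPM in either group. This limit covers counting error only, since no molecular identifiers are described. Of the 6 chondrocyte markers, Col9a1, Matn1 and Cnmd were also at 0. The summed level of the list was 27.0 to 30.5 TPM in the control and 30.7 to 36.5 TPM with miR-322/-503, and Sox9 was higher with a log2 fold change of 0.30 while Matn3 was lower with a log2 fold change of -3.87 (edgeR's quasi-likelihood test, adjusted p = 0.0254 and 0.00902).

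Hspg2 (chr4:137468769-137570630, plus strand), the heparan sulfate proteoglycan of basement membranes and the gene with the CGCTGCT match, had 204, 194.9 and 185 TPM in the control and 142, 146 and 138 TPM with miR-322/-503. All 3 miR-322/-503 libraries were below all controls and the spread within each group was small. In CPM it went from 1368 ± 33.1 to 1017 ± 33.7 (SD, n = 3), a log2 fold change of -0.43 with an SE of 0.05 and a 95% interval of -0.54 to -0.31 (edgeR's quasi-likelihood test, adjusted p = 0.000655). Vcan and Hspg2 were close to each other in the control and far apart with miR-322/-503. The ratio of their TPM was 1.25, 1.26 and 1.54 in the control and 2.96, 2.83 and 3.25 with miR-322/-503.

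Cspg4 (chr9:56865033-56899870, plus strand), the NG2 proteoglycan of proliferating progenitors and of pericytes, was counted at 7421, 7441 and 7105 in the control and at 6282, 5319 and 4895 with miR-322/-503. The groups did not overlap. Its CPM fell from 90.0 ± 5.87 to 67.3 ± 3.17, a log2 fold change of -0.42 with an SE of 0.07 and a 95% interval of -0.58 to -0.26 (edgeR's quasi-likelihood test, adjusted p = 0.00315). Of the 5 markers of pericytes and smooth muscle 3 could be tested, and only Pdgfrb passed, lower with a log2 fold change of -1.18 (edgeR's quasi-likelihood test, adjusted p = 5.50e-06). Nearly all of the summed level of the list was Pdgfrb, with 286 to 289 TPM in the control and 117 to 130 TPM with miR-322/-503. The fibroblast markers had a summed level of 3922 to 4224 TPM against 2749 to 2966 TPM, with Col1a1 higher and Pdgfra, Col3a1 and Lum lower among the 4 tested. The part of these differences in the changes of Vcan, Hspg2 and Cspg4 was not tested.

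**Figure D3:**
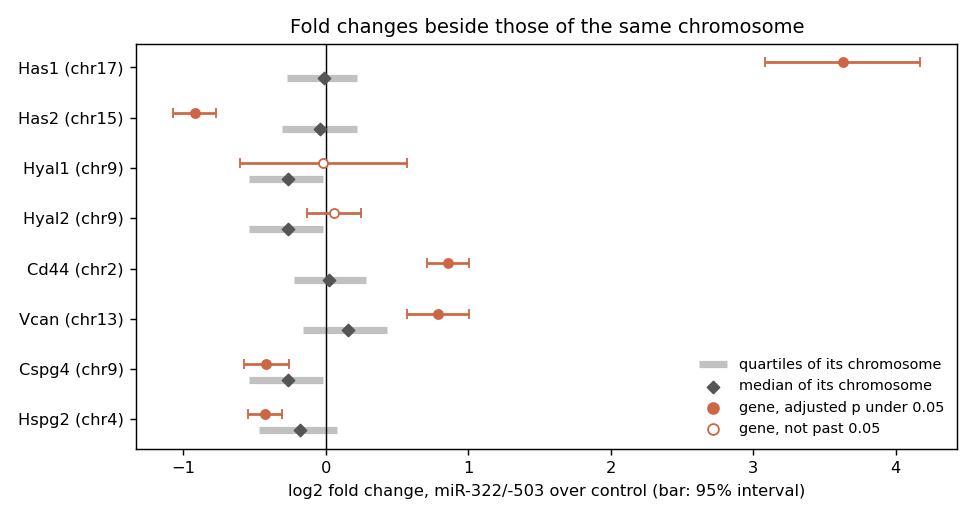
Log2 fold change of each of the 8 tested genes, miR-322/-503 minus control, with a 95% interval derived from edgeR's F statistic. Beside it are the median and the quartiles over all tested genes of the same chromosome. Has1 at 3.63 stands far from its chromosome, whereas Cspg4 at -0.42 and Hspg2 at -0.43 lie between the quartiles of chromosomes 9 and 4.

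The chromosomes of the 9 genes did not all centre on 0, and the values of the genes were set beside those of their chromosomes. On chromosome 9 the log2 fold changes of all tested genes had their median at -0.27 and their quartiles at -0.54 and -0.02, and on chromosome 4 they had a median of -0.19 with quartiles of -0.47 and 0.08. Cspg4 was 0.15 and Hspg2 0.24 below these medians on the log2 scale, inside the quartiles in both cases. The 50 tested genes nearest to Hspg2 had a median of -0.37, and those nearest to Cspg4 had a median of -0.25. Hyal1 and Hyal2, also on chromosome 9, lay 0.25 and 0.33 above its median and above its upper quartile, Hyal1 by little, and the 50 tested genes nearest to each had a median of -0.32. Chromosome 13 had a median of 0.15, and Vcan remained 0.63 above it and outside the quartiles. The 50 tested genes nearest to Vcan had a median of 0.23. The medians of chromosomes 17, 15 and 2 lay between -0.04 and 0.02, so the log2 differences of Has1, Has2 and Cd44 from their chromosomes were 3.64, -0.88 and 0.83. The 50 tested genes nearest to each had medians of 0.18, -0.03 and 0.11. The part of chromosome-wide or regional differences in the changes of Cspg4, Hspg2, Vcan and the other genes was not tested.

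The changes can be set beside the letters in the 3′UTR. The genes with a whole-seed match, Has2 and Hspg2, were both lower, while of the genes with GCTGCT and no whole-seed match Vcan was higher and Hyal1 and Hyal2 passed in neither direction. Cspg4 with no match was lower, and Has1 and Cd44 with no match were higher. Over all 13487 tested genes with a 3′UTR, 19.4% were lower and 15.7% higher. Among the genes with GCTGCT, alone or within a longer match, 19.1% were lower and 16.6% higher, with a median log2 fold change of 0.00. Among the genes with TGCTGCT 18.04% were lower and 17.5% higher, and among those with CGCTGCT 19.6% were lower and 15.8% higher. The median log2 fold change was 0.01 with TGCTGCT and -0.01 with CGCTGCT, beside -0.01 over all these genes. The genes with TGCTGCT or CGCTGCT had longer 3′UTRs, with medians of 2392 and 2378 bases beside 1343 bases over all, and what length contributed was not tested.

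Other genes that make, bind, modify or cleave hyaluronan and proteoglycans were taken as 6 lists with 106 genes in all. Of the 73 tested, 13 were higher (17.8%) and 27 were lower (37.0%), beside 13.2% higher and 15.5% lower over all tested genes. Their median log2 fold change was -0.13 beside -0.01, and 15 of the 106 were at 0 in all libraries. The counts describe the lists and were not tested as sets, and the counts of each list are to be read against the same 13.2% and 15.5%. Where 5 or fewer genes of a list moved in a direction they are all named, and such genes outside the naming rule were chosen after their values were seen.

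**Figure D4:**
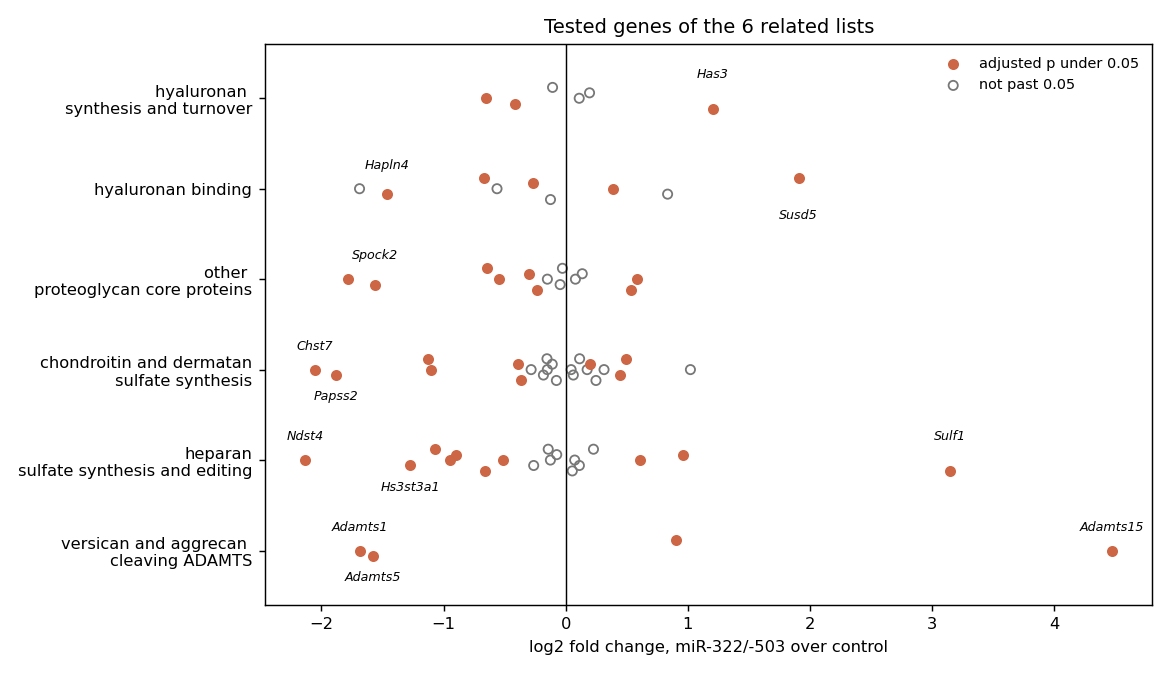
Log2 fold change of every tested gene of the 6 lists, miR-322/-503 minus control, 1 row of points per list, filled where the adjusted p was under 0.05 and open otherwise. Gpc4 is left out because it lies beyond the axis, and Sulf1 at 3.15 and Adamts15 stand at the right while Chst7 at -2.05 and Ndst4 at -2.13 stand at the left.

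In the list for hyaluronan synthesis and turnover, Has3 was higher and Cemip and Cemip2, which both take part in hyaluronan depolymerization, were lower among 6 tested. Cemip went from 65.7 to 49.2 CPM with a log2 fold change of -0.42, and Cemip2 from 81.9 to 52.0 CPM with a log2 fold change of -0.66 (edgeR's quasi-likelihood test, adjusted p = 0.00442 and 0.000231). The genes for breakdown outside the hyaluronidase family fell while Hyal1 and Hyal2 did not pass the test.

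Of 9 tested genes for hyaluronan binding, 2 were higher (Susd5 and Habp4) and 3 were lower (Hmmr, Hapln4 and Layn). Susd5, a membrane protein with a hyaluronan-binding link domain, rose from 8.61 to 32.3 CPM with a log2 fold change of 1.91 (edgeR's quasi-likelihood test, adjusted p = 1.01e-05). Habp4, with a log2 fold change of 0.39, is known mainly as an intracellular RNA-binding protein. Layn, a membrane hyaluronan receptor, went from 49.1 to 40.9 CPM with a log2 fold change of -0.27 (edgeR's quasi-likelihood test, adjusted p = 0.0437). The number of genes higher in the list was 1 without miR-322/-503 replicate 2 and 3 without control replicate 2 or with DESeq2. The number lower was 2 with RLE or upper-quartile factors, with no filter, and without control replicate 2, control replicate 3 or miR-322/-503 replicate 2. Hmmr, a hyaluronan receptor that also works at the mitotic spindle, went from 69.8 to 43.9 CPM with a log2 fold change of -0.67 (edgeR's quasi-likelihood test, adjusted p = 8.69e-05). Hapln4, a link protein that ties proteoglycans to hyaluronan, went from 25.2 to 9.16 CPM with a log2 fold change of -1.46. Hapln1, the link protein of cartilage, and Tnfaip6, which modifies hyaluronan with heavy chains, had at most 16 estimated counts in a library and were not tested. The brain relatives of versican were not tested either, as Ncan was at 0 and Bcan had at most 30 estimated counts in a library.

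Of 14 tested core proteins other than the 9 genes, 2 were higher and 7 were lower. The number lower was 5 to 6 with 1 library left out. The higher genes were Sdc1, a cell-surface syndecan, with a log2 fold change of 0.59, and Gpc1, a glypican, which rose from 1091 to 1582 CPM with a log2 fold change of 0.54. Gpc4, another glypican, was counted at 408, 311 and 271 in the control and at 0, 5 and 0 with miR-322/-503. It was at least 27.5-fold lower against a floor of 3 read pairs per library. Spock2, a secreted testican, went from 92.7 to 31.4 CPM with a log2 fold change of -1.56, and Sdc3 from 164 to 105 CPM with a log2 fold change of -0.65 (edgeR's quasi-likelihood test, adjusted p = 7.37e-06 and 0.000274).

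The enzymes of the sulfated side chains were mixed as well. Of 22 tested genes for chondroitin and dermatan sulfate, the chains of versican and NG2, 3 were higher (Chst3, Chst11 and Fam20b, with log2 fold changes of 0.50, 0.44 and 0.20) and 6 were lower. The number higher was 2 with any 1 library left out, with no filter and in the limma settings. With 1 library left out the number lower ran from 5 to 7. Chst7, a sulfotransferase, went from 9.21 to 2.22 CPM with a log2 fold change of -2.05, Papss2, which makes the sulfate donor, from 3.89 to 1.06 CPM with -1.88, and Chpf, a chain polymerizing factor, from 87.95 to 40.3 CPM with -1.13 (edgeR's quasi-likelihood test, adjusted p = 8.44e-05, 0.000852 and 0.000551).

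Of 18 tested genes for heparan sulfate, the chain of perlecan, 3 were higher (Sulf1, Ext1 and Hs2st1) and 7 were lower. Sulf1, an extracellular enzyme that removes sulfate from heparan sulfate, rose from 30.55 ± 1.55 to 271 ± 18.1 CPM (SD, n = 3) with a log2 fold change of 3.15 (edgeR's quasi-likelihood test, adjusted p = 7.38e-07). Its relative Sulf2 had a log2 fold change of -0.52 and was among the lower genes. Ext1, a chain polymerase, had a log2 fold change of 0.96 and Hs2st1, a sulfotransferase, of 0.61. Ndst4 and Hs3st3a1, which add sulfate, went from 22.4 to 5.12 CPM and from 4.72 to 1.96 CPM, with log2 fold changes of -2.13 and -1.27 (edgeR's quasi-likelihood test, adjusted p = 0.000169 and 0.00257).

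All 4 tested proteases of the ADAMTS group that cut versican or aggrecan passed the test, 2 in each direction. Adamts1 went from 177 to 55.3 CPM and Adamts5 from 150.5 to 50.5 CPM, with log2 fold changes of -1.68 and -1.58 (edgeR's quasi-likelihood test, adjusted p = 1.56e-06 and 2.99e-05). Adamts4 rose from 58.3 to 109 CPM with a log2 fold change of 0.90 (edgeR's quasi-likelihood test, adjusted p = 6.83e-05). Adamts15 was counted at 0, 0 and 16 in the control and at 117, 124 and 114 with miR-322/-503, and it passed in edgeR but not in DESeq2 (adjusted p = 0.0157 and 0.0652). Versican rose beside proteases that moved both ways.

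**Figure D5:**
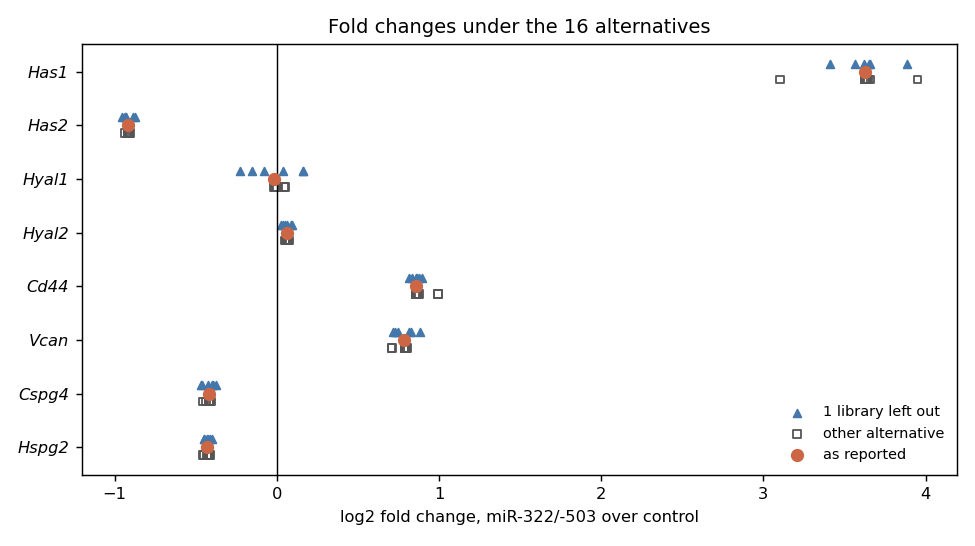
Log2 fold change of each of the 8 tested genes, miR-322/-503 minus control, as reported and under every alternative setting and left-out library, 1 row per gene and 1 point per setting. The points of Has1 run from 3.10 to 3.95, the points of Hyal1 lie on both sides of 0, and the other genes stay on their own side of 0.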

How the data were processed

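The 9 genes and the lists were chosen with earlier results of these data known. Reads had been filtered with Trim Galore, aligned to GRCm38 with HISAT2 and quantified with StringTie, and versions, annotation and strand setting are not given in the sources used here. The authors deposited 1 matrix of estimated counts, whole and not normalized, and a table for each library with the coverage of a gene as a signal per base, its FPKM and its TPM. FPKM was not used. Coverage served only to find that a count stood for about 75 covered bases and a read pair for about 4 counts, which overstates the counting precision. TPM was summed where a gene was listed more than once in a library, and is the level per length.

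Estimated counts were tested with edgeR 4.0.16 in R 4.3.3 (filterByExpr, TMM, glmQLFit, glmQLFTest, Benjamini-Hochberg adjustment over 18140 genes), after the script had been tested on simulated data. The SE is the absolute log2 fold change divided by the square root of F, and the 95% interval was built from this SE with a t quantile. CPM uses TMM-scaled library sizes, with factors of 0.977 to 1.03. Replicate pairs differed by more than sampling noise (chi-square per degree of freedom 14.8 to 21.3 on counts per read pair, where sampling noise alone gives about 1). Tested genes overlapping the 9 genes, 10 preset relatives and, per list, the 3 genes with the largest log2 fold change among those past the test with at least 1 CPM in the higher group were named. Osteoblast, endothelial and macrophage markers were also summed, at 1.37 to 1.93, 0.423 to 0.524 and 3.28 to 5.74 TPM in the control and 2.04 to 3.69, 1.58 to 2.35 and 5.71 to 6.49 TPM with miR-322/-503. Alternatives were DESeq2 1.42.0, upper-quartile or RLE factors, a filter of 10 counts in each library or none, glmTreat for changes beyond 2-fold, limma 3.58.1 on log2(TPM + 1) and log2(TPM + 0.1), counts per read pair, a replicate block and each library left out.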

Additional observations from a re-analysis of the deposited data

How the results depend on the processing

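The numbers of the 8 tested genes that were higher (3) and lower (3) were the same under every setting and left-out library other than glmTreat, which tests for a change beyond 2-fold and is stricter by construction. It gave 1 higher and 0 lower, and 2 higher and 8 lower over the 6 lists in place of 13 and 27. Under it Has2 (-0.92), Cd44 (0.86), Vcan (0.79), Cspg4 (-0.42) and Hspg2 (-0.43) kept their log2 fold changes and lost the call. Hyal1, which was never called, changed sign with upper-quartile factors (0.000301) and with limma on log2(TPM + 1) (0.0436) and log2(TPM + 0.1) (0.0541), and ran from -0.225 to 0.163 with 1 library left out, positive without control replicate 1 (0.0357), control replicate 2 (0.162) or miR-322/-503 replicate 2 (0.163). The cause was not tested. Hyal3 ran from -0.207 to 0.0493, positive without miR-322/-503 replicate 1. With 1 library left out Has1 ran from 3.41 to 3.88, Has2 from -0.958 to -0.877, Cd44 from 0.812 to 0.897, Vcan from 0.718 to 0.882, Cspg4 from -0.468 to -0.373 and Hspg2 from -0.448 to -0.401, and the 6 lists held 10 to 12 genes higher and 24 to 25 lower. limma on log2(TPM + 0.1) gave Has1 3.95, the highest value of any setting. Has3 missed the threshold with limma on log2(TPM + 1) (0.29, adjusted p = 0.0681), limma on log2(TPM + 0.1) (0.88, adjusted p = 0.0704) and glmTreat (adjusted p = 0.980). Same-numbered libraries correlated at 0.131, 0.0687 and 0.0451, above the -0.108 to 0.0401 of differently numbered libraries. The numbers were not taken as pairs in the main test, and whether they mark a shared batch was not tested. With the replicate block Has1 was 3.66 and 3 genes were higher and 3 lower, and no gene among the 9 changed its call. Over all genes the settings called 396 higher and 530 lower (glmTreat) and 1828 and 2529 (limma) beside 2401 and 2817. Has1 in the control, Has3 and Adamts15 rest on few read pairs in some libraries.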
